A study of Mus musculus with 14 samples.

Results

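Secreted messengers of T cells were followed as 8 genes: the cytokines Ifng, Tnf, Il2 and Csf2 and the chemokines Ccl3, Ccl4, Ccl5 and Xcl1. They were taken by name as secreted effector genes, with earlier results of these data known. All 8 were among the 25124 genes of the count table, and all 8 were among the 13434 genes tested. RNA was sequenced from 3 populations of CD4 T cells taken from tumours of AE17-OVA, a mouse mesothelioma that carries the model antigen ovalbumin. The mice were female C57BL/6 animals of 8 to 12 weeks with the genotype GATIR Foxp3Cre-rfp Gata3Cre-yfp in every group, controls included, and the tumours were subcutaneous. Each mouse had 200 µg of antibody in the peritoneal cavity on day 10, either anti-PD-L1 (clone MIH5), which blocks a ligand of PD-1, an inhibitory receptor of T cells, or an isotype control (clone 2A3). The labels give day 13 for the tumours, in 1 place worded as after treatment. Cells were sorted on CD4, CD25, PD-1 and the red Foxp3 reporter. Smart-seq2, a full-length cDNA method for few cells, gave the libraries. Each population came from isotype and from anti-PD-L1 mice. CD4 T cells outside the Treg gate had 2 isotype and 3 anti-PD-L1 libraries, PD-1- regulatory T cells (Tregs) 2 and 2, and the PD-1+ type 2 and 3. Replicates are called biological in the series text, which does not say which animals or pools they came from. The p-values therefore reflect only how far these libraries spread, and that spread may be partly technical. The main fit treats all libraries as independent. Whether 1 animal or pool gave libraries of several populations is not stated. Where it did, tests over or between populations count that source more than once.

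Activated CD4 T cells secrete these proteins after their antigen receptor is engaged. Interferon-gamma (Ifng) and TNF (Tnf) act on macrophages, tumour cells and other T cells, IL-2 (Il2) drives T cell growth and sustains Tregs, and GM-CSF (Csf2) acts on myeloid cells. The chemokines Ccl3, Ccl4 and Ccl5 attract T cells and myeloid cells, and Xcl1 attracts dendritic cells that carry Xcr1. Foxp3 is known to repress several cytokine genes, Il2 among them, and Tregs depend on IL-2 made by other cells.

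The libraries held 10638848 to 15030804 counts each. Levels are CPM (counts scaled to a common library size of 1e+06) on scaled library sizes, and 3 counts in a library correspond to 0.198 to 0.292 CPM. At least 1 count was found for 12119 to 14535 genes in CD4 T cells, 9662 to 11312 in PD-1+ Tregs and 8027 to 8801 in PD-1- Tregs. Counts of the Y-linked genes Ddx3y, Eif2s3y, Kdm5d and Uty reached 208 to 285 CPM in 3 anti-PD-L1 libraries, 1 in each population, and were at most 1 count in the other 11, although the labels give female mice. These are replicate 3 of CD4 T cells, replicate 2 of PD-1- Tregs and replicate 3 of PD-1+ Tregs. Some of the results that include them are given with and without them, and the others only with them. The defining T cell gene Cd3e had counts in all 14 libraries (227 to 550 CPM). Foxp3 stood at 114 to 198 CPM in PD-1- Tregs, 15.9 to 156 in PD-1+ Tregs and 16.3 to 55.0 in CD4 T cells, so the Foxp3 RNA level overlapped between PD-1+ Tregs and CD4 T cells.

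The genes lie on 5 chromosomes of build GRCm38.p6, the RefSeq form of mm10. Ifng (NCBI gene 15978) spans chromosome 10, 118441046 to 118445894, Tnf (21926) chromosome 17, 35199367 to 35202007, Il2 (16183) chromosome 3, 37120713 to 37125954, and Xcl1 (16963) chromosome 1, 164931644 to 164935522. Csf2 (12981) spans chromosome 11, 54247270 to 54249899. The other 3 chemokine genes sit in a cluster on the same chromosome, Ccl5 (20304) at 83525778 to 83530518, Ccl3 (20302) at 83647843 to 83649378 and Ccl4 (20303) at 83648624 to 83664683. The RefSeq model of Ccl4 runs over Ccl3 on the other strand, while GENCODE starts Ccl4 at 83662584, beyond Ccl3. Whether counting used strand is not stated, so a read in the overlap could not be assigned with certainty. Csf2 also overlaps the model Gm12223, and in GENCODE Il2 overlaps Adad1, which had 0 counts in every library.

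RefSeq start regions were at hand for 6 of the 8 genes, and not for Ccl4 and Ccl5. The 150 bases before the start are printed 5′ to 3′ for a pair of genes whose CD4 libraries separated by treatment (Ifng and Ccl3) and a pair whose libraries did not (Il2 and Tnf), so that the regions can be set side by side. Capitals mark the TATA box core TATAAA and the NFAT core GGAAA, or its reverse complement TTTCC. The regions are chr10:118440896-118441045 on the plus strand, chr11:83649379-83649528, chr3:37125955-37126104 and chr17:35202008-35202157 on the minus strand.
Ifng: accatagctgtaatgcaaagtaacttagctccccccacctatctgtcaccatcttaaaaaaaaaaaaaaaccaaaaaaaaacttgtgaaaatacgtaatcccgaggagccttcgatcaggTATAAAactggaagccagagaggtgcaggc
Ccl3: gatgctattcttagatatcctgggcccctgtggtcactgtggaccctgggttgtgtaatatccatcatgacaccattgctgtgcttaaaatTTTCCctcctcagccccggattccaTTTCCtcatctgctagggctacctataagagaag
Il2: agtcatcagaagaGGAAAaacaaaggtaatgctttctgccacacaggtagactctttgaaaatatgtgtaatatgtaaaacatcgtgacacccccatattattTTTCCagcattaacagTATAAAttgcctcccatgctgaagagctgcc
Tnf: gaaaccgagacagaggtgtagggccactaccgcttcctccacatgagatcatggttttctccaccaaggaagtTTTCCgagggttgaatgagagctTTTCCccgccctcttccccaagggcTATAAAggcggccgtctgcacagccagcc

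In the 250 bases before the start, searched on both strands, TATAAA was found in 3 of the 6 genes (Ifng, Il2 and Tnf) and in 12.4% of 32851 promoters of the same length. GGAAA was found in 6 of 6 against 55.6%. The sequence TGANTCA (AP-1) was found in 0 of 6 against 6.75%, and a kappa-B sequence in 0 of 6 against 4.11%. The CD4 libraries separated by treatment for Ifng, Ccl3, Csf2 and Xcl1, and of these only Ifng held the TATA core. Il2 and Tnf, whose libraries did not separate, both held it. None of those separations passed the adjusted threshold. A match is a run of letters and no shown binding site, and no match says only that these letters are absent from the window.

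Per transcript length, Ccl5 was the highest of the 8 genes in each population. RPKM, the deposited value that corrects for transcript length and sequencing depth, was used to order the genes. In CD4 T cells the mean RPKM was 438 for Ccl5, 74.8 for Ccl4, 35.8 for Xcl1, 32.7 for Ccl3, 26.6 for Ifng, 13.6 for Tnf, 9.96 for Il2 and 1.00 for Csf2 (n = 5). In PD-1+ Tregs it was 389 for Ccl5, 90.7 for Ccl4, 43.9 for Ccl3 and 29.5 for Xcl1, and 8.73 for Tnf, 8.70 for Ifng, 5.44 for Il2 and 0.0144 for Csf2 (n = 5). By these means over both treatments the 4 chemokines led the 4 cytokines in both populations. Under isotype alone, Xcl1 in CD4 T cells (mean RPKM 11.35) stood below Tnf (12.95). In PD-1+ Tregs Xcl1 ran from 0 to 87.9 RPKM in single libraries. In PD-1- Tregs the mean RPKM was 98.1 for Ccl5, 22.3 for Ccl3 and 19.3 for Ccl4, while Xcl1 at 4.16 stood below Il2 (9.40), Tnf (6.32) and Ifng (5.65), and Csf2 was at 0 (n = 4). Ccl5 made up 29.7% to 68.8% of the summed CPM of the 8 genes in single libraries.

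**Figure D1:**
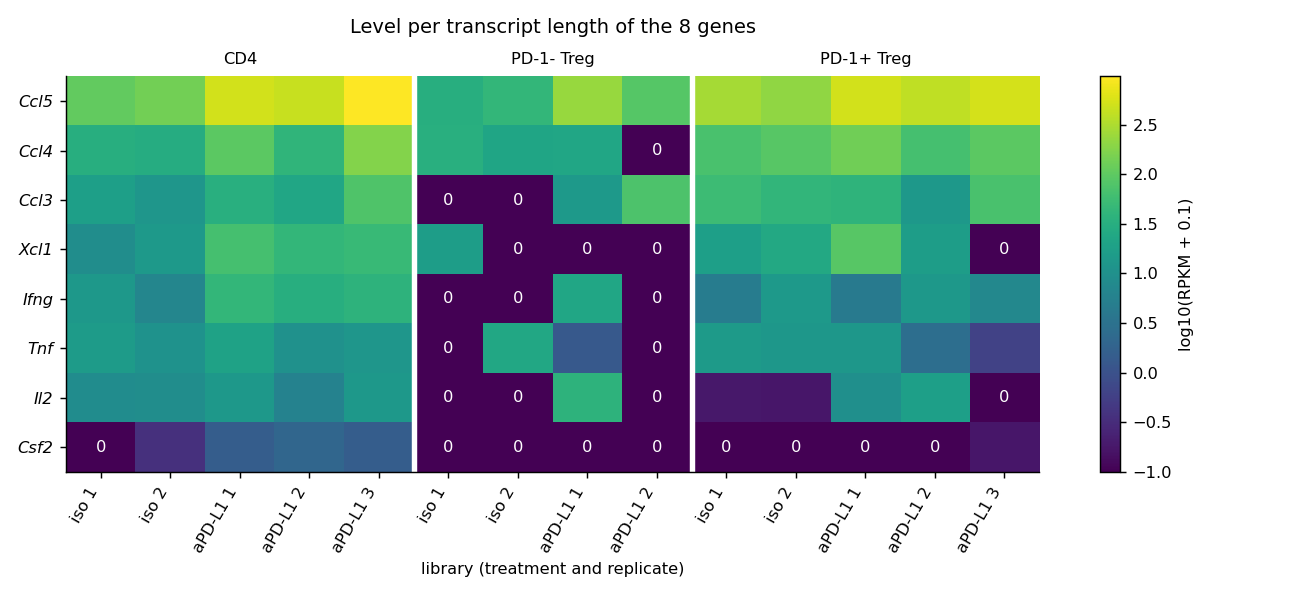
Level per transcript length of the 8 genes (rows) in the 14 libraries (columns, grouped by population and treatment), coloured by log10(RPKM + 0.1), with 0 written where a library had no count. Ccl5 is bright in all 14 libraries, whereas 18 of the 32 cells of PD-1- Tregs are at 0.

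The genes were not detected evenly. A count of 0 was recorded in 1 of 40 values in CD4 T cells, 6 of 40 in PD-1+ Tregs and 18 of 32 in PD-1- Tregs. All of the 8 genes but Ccl5 had at least 1 library at 0 in the PD-1- type. The same held for 71.0% of all tested genes with a mean of 5 to 50 CPM in that population, for 45.2% in PD-1+ Tregs and for 3.47% in CD4 T cells. Among genes of 50 to 500 CPM, where Ccl5 lies, the shares were 11.4%, 1.26% and 0%. In the band of 5 to 50 CPM, 40.3% of genes had 2 or more PD-1- libraries at 0, as Ifng, Tnf, Il2 and Ccl3 did. A library at 0 is thus common in PD-1- Tregs at the level of Ifng, Tnf, Il2, Ccl3 and Ccl4, while Xcl1 and Csf2 lay below that band. For these genes the mean of 2 libraries often rests on 1. In bulk samples, fewer cells that express a gene and less RNA per cell cannot be told apart.

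**Figure D2:**
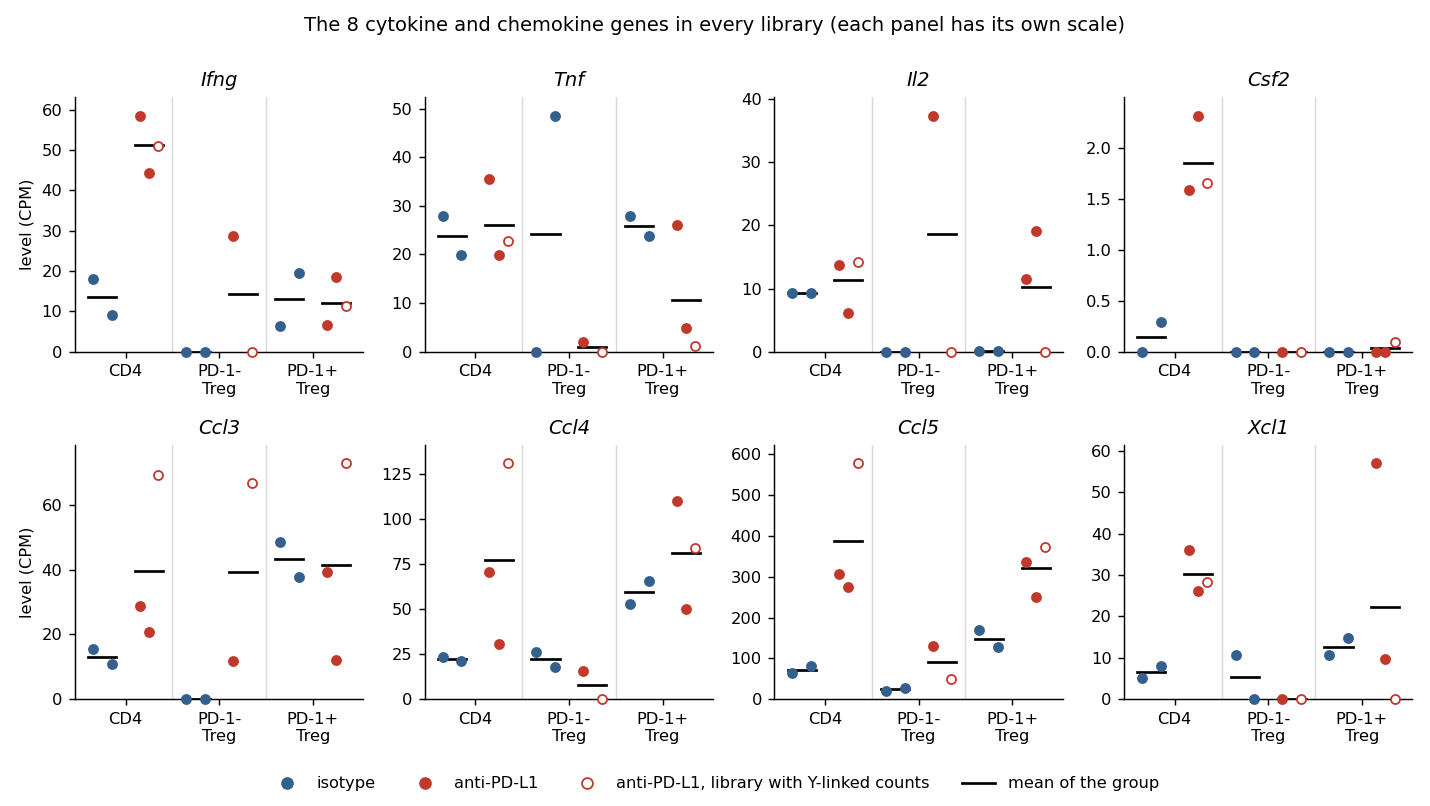
Level in CPM of each gene in every library, by population, with isotype libraries in blue, anti-PD-L1 libraries in red, libraries with Y-linked counts as open circles and group means as bars. Ccl5 is higher in each anti-PD-L1 library than in each isotype library of the same population, while Ifng, Il2, Tnf and Xcl1 in PD-1- Tregs are each carried by 1 library or a pair.

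Ccl5, a chemokine of effector and memory T cells, was the gene whose libraries separated by treatment in all 3 populations. In CD4 T cells it stood at 63.1 and 81.4 CPM under isotype and at 306, 275.5 and 577 under anti-PD-L1. In PD-1- Tregs it stood at 20.2 and 28.1 under isotype and at 130.1 and 50.5 under anti-PD-L1. In PD-1+ Tregs it stood at 169 and 127 under isotype and at 337, 251 and 374 under anti-PD-L1. Every anti-PD-L1 library was above every isotype library of its population, as for 84 genes in all (0.625% of genes tested). Group means rose from 72.2 ± 12.9 to 386 ± 166 CPM in CD4 T cells (SD, n = 2 and 3), from 24.1 ± 5.55 to 90.3 ± 56.3 (n = 2 and 2) in PD-1- Tregs, while PD-1+ Tregs went from 148 ± 30.0 to 321 ± 63.1 (n = 2 and 3).

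Over the 3 populations Ccl5 rose by 1.81 ± 0.27 on the log2 scale (SE), with an adjusted p of 0.00896 by edgeR's quasi-likelihood test with Benjamini-Hochberg adjustment over all genes. Of the 8 genes 2 passed in that comparison, Ccl5 and Ccl3, against 165 of all genes (1.23%). Without the 3 libraries with Y-linked counts the change of Ccl5 was 1.79 and its adjusted p 0.00657. Without CD4 isotype replicate 1 its adjusted p was 0.0573, past the threshold of 0.05, and neither Ccl5 nor any other of the 8 was called. Within single populations the change was 2.42 ± 0.48 in CD4 T cells (adjusted p = 0.389), 1.90 ± 0.49 among PD-1- Tregs (0.0638) and, in the PD-1+ type, 1.12 ± 0.45 (0.596), all by edgeR, so none passed on its own with all libraries. Without the Y-linked libraries the change in PD-1- Tregs was 2.40 and passed (adjusted p = 0.0128, edgeR). The test of a difference between the 3 changes gave an adjusted p of 0.588, with 100 genes called (0.744%) and none of the 8. The change in PD-1+ Tregs minus that in CD4 T cells was -1.30 ± 0.62, with an unadjusted p of 0.0559 by edgeR, so a difference in size was not resolved by these libraries.

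**Figure D3:**
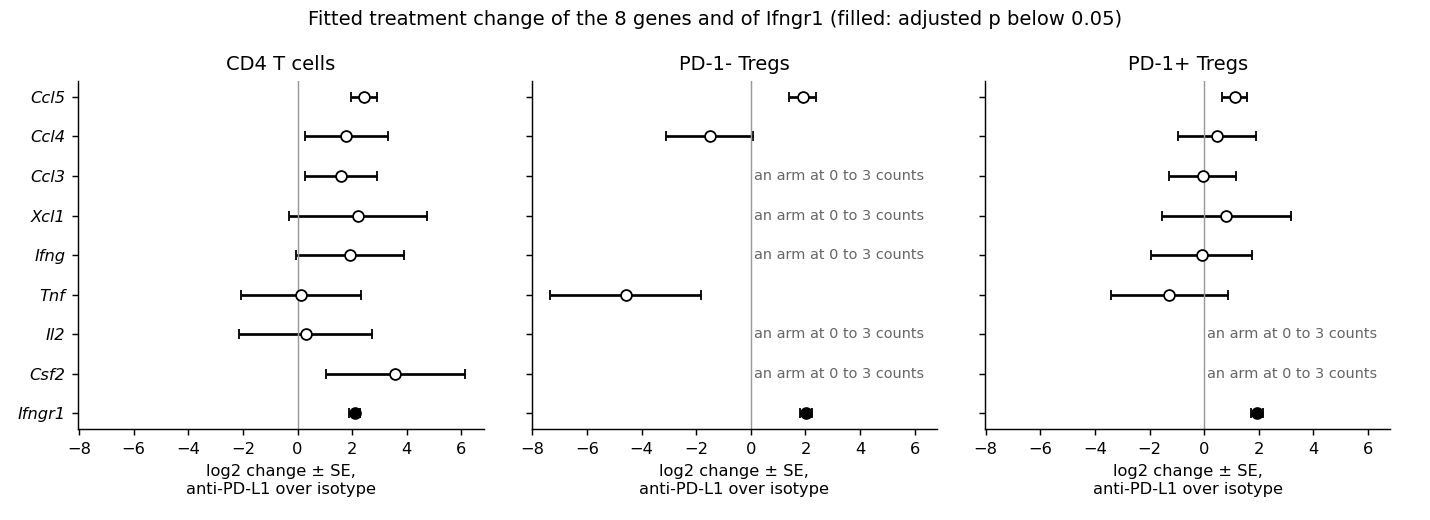
Fitted log2 change of anti-PD-L1 over isotype with its SE for the 8 genes and for Ifngr1 in each population, filled where the adjusted p is below 0.05, with no point where 1 treatment had at most 3 counts. The point of Ccl5 lies right of 0 in all 3 panels with a short bar, and Ifngr1 is filled in all 3.

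In CD4 T cells 6 of the 8 genes were higher in every anti-PD-L1 library than in every isotype library. The same was seen for 12.5% of all genes tested. The 6 were Ifng, Csf2, Ccl3, Ccl4, Ccl5 and Xcl1. Of these, Csf2 passed the filter on low counts only through the anti-PD-L1 libraries of these cells. None of the 6 passed the adjusted threshold in this population, where 1 gene in all did (0.00744%). Before adjustment Ccl5 alone was below 0.05 by edgeR (0.000268), and DESeq2 called Ccl5 alone of the 8, among 54 genes in all. Summed over the 8 genes, the level was 163 and 160 CPM in the isotype libraries and 551, 426 and 895.5 in the anti-PD-L1 libraries.

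Ifng, the macrophage-activating cytokine of Th1 cells, stood at 18.1 and 9.05 CPM under isotype and at 58.4, 44.3 and 50.9 under anti-PD-L1 in CD4 T cells. The anti-PD-L1 CD4 libraries held the highest Ifng levels of all 14 libraries. The group means were 13.6 ± 6.42 and 51.2 ± 7.09 CPM (n = 2 and 3), and the fitted change was 1.91 ± 1.98 (adjusted p = 1, edgeR). In PD-1+ Tregs Ifng stood at 6.37 and 19.5 CPM under isotype and at 6.52, 18.6 and 11.4 under anti-PD-L1, so the groups overlapped, with a change of -0.09 ± 1.84 (adjusted p = 1, edgeR). In PD-1- Tregs it was at 0 in both isotype libraries and in anti-PD-L1 replicate 2, and at 28.8 CPM in replicate 1. The mean under anti-PD-L1 was at least 52.2-fold higher than the floor of 3 counts per library, from 1 of 2 libraries, and the adjusted p was 0.109 (edgeR). It was 0.0117 without the replicate at 0, which also carries the Y-linked counts, so the call turned on that library.

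Tnf, an inflammatory cytokine made by many immune cells, did not separate by treatment in any population. Its levels in CD4 T cells were 27.9 and 19.8 CPM under isotype and 35.5, 19.9 and 22.8 under anti-PD-L1. In PD-1+ Tregs it stood at 27.9 and 23.8 under isotype and at 26.0, 4.94 and 1.07 under anti-PD-L1, where the second and the third library lay below both isotype libraries and the first between them. In PD-1- Tregs it was at 0 and 48.5 under isotype and at 2.00 and 0 under anti-PD-L1. The adjusted p was 1, 1 and 0.389 in CD4 T cells and in the PD-1+ and PD-1- Treg types (edgeR). The fitted change in PD-1- Tregs turned from -4.59 ± 2.77 to 6.65 without isotype replicate 2, the 1 isotype library with counts.

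Il2, the T cell growth factor, was low and even in CD4 T cells, with 9.21 and 9.34 CPM under isotype and 13.8, 6.16 and 14.3 under anti-PD-L1. Those groups overlapped (change 0.30 ± 2.44, adjusted p = 1, edgeR). Tregs had almost no Il2 under isotype, 0 in both PD-1- libraries and 1 count in each PD-1+ library. Under anti-PD-L1, 3 of the 5 Treg libraries held Il2, at 37.3 CPM in PD-1- replicate 1 and at 11.5 and 19.1 in PD-1+ replicates 1 and 2. The other two Treg libraries, at 0, were the ones with Y-linked counts. In PD-1+ Tregs the pooled counts were 133-fold higher (95% counting interval 36.6 to 1104), and in PD-1- Tregs the mean was at least 67.8-fold higher than the floor. Neither passed between libraries (adjusted p = 0.631 and 0.182, edgeR). Over the 3 populations the adjusted p of Il2 was 0.179 with all libraries and 0.0362 without the 3 libraries with Y-linked counts, all by edgeR.

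Csf2, which encodes the myeloid growth factor GM-CSF, was close to the limit of detection and was found mainly in CD4 T cells. Its counts there were 0 and 4 under isotype and 24, 30 and 22 under anti-PD-L1, or 0 and 0.290 CPM against 1.58, 2.31 and 1.65. The groups did not overlap, yet the change of 3.58 ± 2.55 did not pass (adjusted p = 1, edgeR). The 9 Treg libraries together held 1 count. Csf2 was thus among the tested genes only through the anti-PD-L1 CD4 libraries, where it was highest. Its separation by treatment and from Tregs is therefore not independent of the filter on low counts. Set against CD4 T cells, Csf2 was at least 4.55-fold lower in PD-1- Tregs (adjusted p = 0.115) and, as pooled counts, 68.6-fold lower in PD-1+ Tregs (95% counting interval 12.0 to 2742, adjusted p = 0.352), both by edgeR.

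Ccl3, a chemokine that attracts T cells and myeloid cells, gave the 1 call among the 8 genes within a single population. In PD-1- Tregs it was at 0 in both isotype libraries and at 11.9 and 66.8 CPM under anti-PD-L1, at least 143-fold higher than the floor. The fitted change was 11.94 ± 2.27 with an adjusted p of 0.0175 (edgeR), in a comparison that called 358 genes (2.66%). The adjusted p was 0.705 in a fit of the PD-1- libraries alone, and 0.0342 without the library with Y-linked counts. Among CD4 T cells Ccl3 stood at 15.6 and 10.7 CPM under isotype and at 28.9, 20.9 and 69.2 under anti-PD-L1, without overlap. In PD-1+ Tregs it stood at 48.7 and 37.7 under isotype and at 39.3, 12.2 and 72.8 under anti-PD-L1, so there the groups overlapped. The libraries with Y-linked counts had the highest Ccl3 of their group in all 3 populations (66.8 to 72.8 CPM, against 11.9 to 39.3 in the other 5 anti-PD-L1 libraries). The part of those libraries in the level of Ccl3 was tested only by leaving them out.

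Over the 3 populations Ccl3 rose by 4.49 ± 0.94 (adjusted p = 0.0438, edgeR). The call was lost without the Y-linked libraries (adjusted p = 0.0998) and when any 1 of 9 of the 14 libraries was left out, with an adjusted p of up to 0.279. Those 9 were all 5 CD4 libraries, both PD-1+ isotype libraries and PD-1+ anti-PD-L1 replicates 1 and 3. The change of Ccl3 in PD-1+ Tregs minus that in PD-1- Tregs was -12.01 ± 2.44 (adjusted p = 0.0374, edgeR), and the joint test over the 3 populations gave 0.1002.

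Ccl4, the neighbour of Ccl3 and likewise a chemokine, moved in opposite directions in different populations. In CD4 T cells it stood at 23.5 and 21.2 CPM under isotype and at 70.5, 30.7 and 131 under anti-PD-L1, all higher. In PD-1- Tregs it stood at 26.4 and 18.0 under isotype and at 15.6 and 0 under anti-PD-L1, both lower. Higher without overlap in the first and lower without overlap in the second was found for 203 genes (1.51%). The difference of the 2 changes was -3.30 ± 2.19 and did not pass (adjusted p = 0.5703, edgeR). In PD-1+ Tregs it stood at 52.9 and 65.6 under isotype and at 109.9, 50.1 and 84.0 under anti-PD-L1, with overlap. Without PD-1- anti-PD-L1 replicate 1 the other library, at 0, set the group: the change in PD-1- Tregs was then -11.11 with an adjusted p of 0.00357, against -1.51 ± 1.59 and 0.749 with both, by edgeR.

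Xcl1, the ligand of Xcr1, stood at 5.12 and 7.97 CPM under isotype and at 36.0, 26.1 and 28.4 under anti-PD-L1 in CD4 T cells, without overlap (change 2.20 ± 2.52, adjusted p = 1, edgeR). In PD-1- Tregs 1 of 4 libraries held it, isotype replicate 1 at 10.6 CPM. In PD-1+ Tregs it stood at 10.6 and 14.7 under isotype and spread from 0 to 57.0 under anti-PD-L1, with 9.72 in the middle. The direction there depended on the scale, a change of 0.81 ± 2.37 in counts and of -0.95 as log2(RPKM + 1).

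By the same count of libraries, 2 genes were higher without overlap under anti-PD-L1 in PD-1- Tregs (Ccl3 and Ccl5) against 12.5% of all genes, and 1 in PD-1+ Tregs (Ccl5) against 7.69%. In PD-1- Tregs 2 of 8 lies above the share of all genes by 1 gene. None of the 8 passed in PD-1+ Tregs, where edgeR called 2 genes in all (0.0149%). There Ccl5 alone had an unadjusted p below 0.05 (0.0285), and DESeq2 called 0 of the 8 as well. Leaving out anti-PD-L1 replicate 1 or replicate 2 of PD-1- Tregs moved the number of the 8 called there from 1 to 2 (Ccl3 and Ccl4) or 3 (Ifng, Ccl3 and Ccl5), and leaving out all Y-linked libraries moved it to 4 (Ifng, Il2, Ccl3 and Ccl5), while the number over all genes went from 358 to 690.

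**Figure D4:**
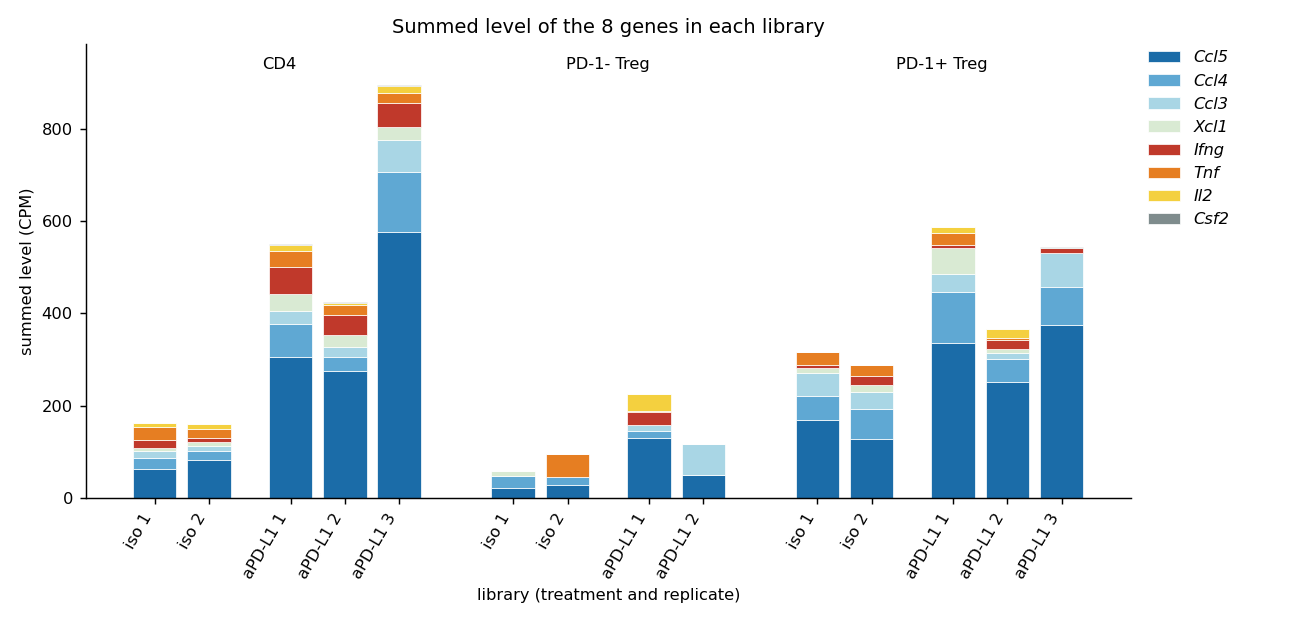
Summed CPM of the 8 genes in each library, stacked by gene, with bars from 0. Ccl5 forms the largest block in 11 of the 14 bars, and each anti-PD-L1 bar is taller than each isotype bar of its population.

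Between populations, with both treatments given equal weight, Ccl5 and Ccl3 were lower in PD-1- Tregs than in either other population, and no other of the 8 passed. Ccl5 was 2.22 ± 0.34 higher on the log2 scale in PD-1+ than in PD-1- Tregs (adjusted p = 0.00524), and 1.84 lower in PD-1- Tregs than in CD4 T cells (log2 change -1.84 ± 0.34, adjusted p = 0.0134), by edgeR. Its mean level was 261 ± 208 CPM in CD4 T cells (n = 5), 252 ± 106 (n = 5) for the PD-1+ type of Treg and 57.2 ± 50.2 (n = 4) for the PD-1- type. Under isotype the PD-1+ libraries stood at 169 and 127 and the PD-1- libraries at 20.2 and 28.1, and under anti-PD-L1 the groups stood apart as well. In a fit of the Treg libraries alone the adjusted p of the first difference was 0.0577. Without the Y-linked libraries the changes were 1.91 (adjusted p = 0.0120) and -1.40 (adjusted p = 0.0356). With a block on treatment and the number that ends the column name given in brackets in the sample titles, the difference from CD4 T cells did not pass (adjusted p = 0.0974).

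Ccl3 was called in the same pair of comparisons, at 6.08 ± 1.26 (adjusted p = 0.0222) and -5.19 ± 1.22 (adjusted p = 0.0426), by edgeR. Both values rest on the PD-1- isotype libraries at 0, since the mean levels of 42.1 and 19.7 CPM in PD-1+ and PD-1- Tregs differed by 2.14-fold. Without the Y-linked libraries both calls were lost (adjusted p = 0.0540 and 0.0821), and in a fit of the Treg libraries alone the first was lost (0.222). Without any 1 of 3 libraries (either CD4 isotype library or PD-1+ isotype replicate 1) the first was lost, and without any 1 of 9 the second. Those 9 were all 5 CD4 libraries and the isotype libraries of both Treg types. These comparisons called 575 genes (4.28%) between the Treg types and 484 (3.6%) between PD-1- Tregs and CD4 T cells, with 2 of the 8 in each. Without PD-1- anti-PD-L1 replicate 1, Ifng and Ccl4 passed as well in both.

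Ccl4 was higher in every PD-1+ Treg library (50.1 to 109.9 CPM) than in every PD-1- Treg library (0 to 26.4), the 1 gene of the 8 with no overlap over both treatments, against 3.24% of all genes. Its change of 2.40 ± 1.13 had an adjusted p of 0.236 (edgeR). No gene of the 8 was above every PD-1- Treg library in every CD4 library, against 13.0% of all genes. PD-1+ Tregs and CD4 T cells did not differ past the threshold in any of the 8 by edgeR, in a comparison that called 47 genes (0.35%), and DESeq2 also called 0. Csf2 alone had an unadjusted p below 0.05 there (0.0286). The median change of the 8 genes was -0.17 in that comparison, against -0.23 over all genes tested. It was 2.31 against 0.42 between PD-1+ and PD-1- Tregs, and -4.88 against -0.94 between PD-1- Tregs and CD4 T cells, in values that depend on genes with groups at 0.

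The order of the 6 group means differed between genes. Ccl5 was highest in CD4 T cells under anti-PD-L1 (386 CPM), which overlapped with PD-1+ Tregs under anti-PD-L1 (321), followed after a gap by PD-1+ Tregs under isotype (148). That group overlapped with PD-1- Tregs under anti-PD-L1 (90.3), which overlapped with CD4 T cells under isotype (72.2), and PD-1- Tregs under isotype came last without overlap (24.1). For Ifng, CD4 T cells under anti-PD-L1 stood alone at the top, the next 4 groups overlapped in turn from 14.4 to 12.2 CPM, and PD-1- Tregs under isotype were at 0. For Ccl3, 4 groups lay within 39.4 to 43.2 CPM and overlapped in turn, and the last of them, PD-1- Tregs under anti-PD-L1, also overlapped with CD4 T cells under isotype (13.1). For Tnf every pair of neighbours in the order overlapped.

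Markers of cell types outside the sort were measured beside these results. The summed level of 10 CD8 T and NK cell markers was 72.5 to 82.2 CPM in CD4 isotype libraries and 74.6 to 104 under anti-PD-L1, 47.5 to 102 and 62.1 to 94.1 in PD-1+ Tregs, and 8.57 to 20.1 and 0 to 76.7 in PD-1- Tregs. Cd8a was at 0 in the PD-1- isotype libraries and at 35.2 CPM in PD-1- anti-PD-L1 replicate 1, the 1 PD-1- library with Ifng and Il2, and its part in those levels was not tested. In PD-1- replicate 2 under anti-PD-L1 all 10 were at 0, while Ccl3 stood at 66.8 CPM and Ccl5 at 50.5. In CD4 T cells the NK cell receptor gene Ncr1 was at 0 under isotype and at 0.923 to 3.62 CPM under anti-PD-L1. Klrc1 (0 to 3.44 and 7.78 to 14.5) and Gzma (2.71 to 3.98 and 5.21 to 14.6) were likewise higher there without overlap. Cd8a, Klrb1c, Klrd1 and Klre1 overlapped, as did Cd8b1 (6.37 to 13.5 and 9.32 to 12.1). The 14 macrophage and monocyte markers, whose cells also make Ccl3 and Ccl4, summed to 3026 to 7471 CPM in CD4 T cells, 4398 to 7945 in PD-1+ Tregs and 512 to 1098 in PD-1- Tregs, so they were lowest where Ccl5 was lowest. Of the 14, 11 were called higher in PD-1+ than in PD-1- Tregs, against 3.80% of all genes tested. Lower in PD-1- Tregs than in CD4 T cells were 9, against 3.33%. By treatment the sums overlapped in every population, but single markers did not all do so. Ly6c2, which activated T cells can also express, was higher without overlap under anti-PD-L1 in all 3 populations, as Ccl5 was (18.4 to 19.9 CPM and 36.5 to 60.1 in CD4 T cells, 0 to 14.4 and 21.8 to 31.0 in PD-1- Tregs, 5.92 to 7.05 and 15.6 to 40.8 in the PD-1+ type). Csf1r, the receptor gene of macrophage growth factor, went from 0 to 1.27 CPM under isotype to 19.9 to 41.1 under anti-PD-L1 in PD-1- Tregs, where Ccl3 was called, while Mrc1 fell there (adjusted p = 0.00204, edgeR). Of the T cell markers, Cd3e was likewise higher without overlap in all 3 populations (369 to 416 and 456 to 550 CPM, 270 to 285 and 399 to 537, and 227 to 262 and 334 to 373). The part of other cells in the differences by population or treatment was not tested.

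**Figure D5:**
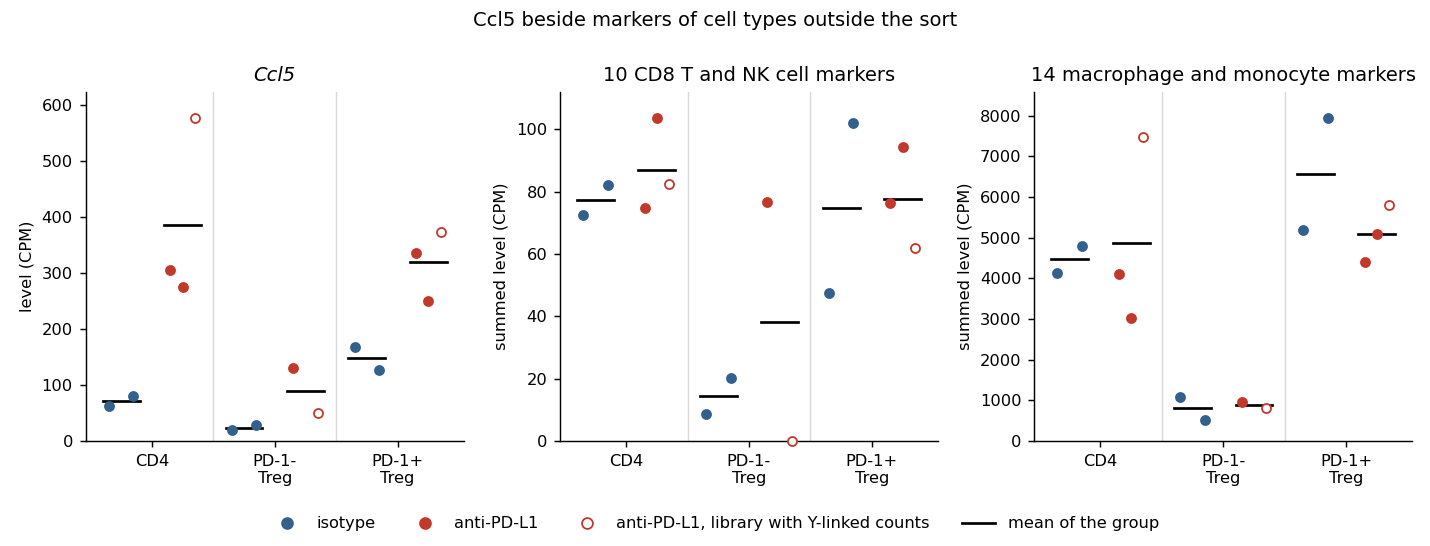
Level of Ccl5 and summed levels of 10 CD8 T and NK cell markers and of 14 macrophage and monocyte markers in every library, in CPM, with the colours and symbols of treatment. Ccl5 separates by treatment in each population, whereas both marker sums overlap between treatments, and the macrophage sum is at most 1098 CPM in PD-1- Tregs.

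Of the other lists, the 11 neutrophil and mast cell markers separated by treatment as a sum in all 3 populations, as Ccl5 did. They summed to 16.7 to 20.2 CPM under isotype and 25.5 to 35.8 under anti-PD-L1 in CD4 T cells, to 0 in both PD-1- isotype libraries and 17.5 to 56.9 under anti-PD-L1, and to 4.50 to 15.2 and 19.7 to 38.3 in PD-1+ Tregs. These are low sums carried by few genes. In the PD-1- anti-PD-L1 libraries only 2 and 1 of the 11 had counts, and in PD-1+ anti-PD-L1 replicate 3 only 1 had. Kit alone reached 56.8 CPM in 1 PD-1- library, and S100a9 alone made up the 17.5 CPM of the other. The part of these markers in the changes of Ccl5 and Ccl3 was not tested. The 7 measured B cell markers were lower under anti-PD-L1 without overlap in CD4 T cells (195 to 234 CPM under isotype and 52.1 to 91.8) and in PD-1+ Tregs (207 to 428 and 38.7 to 112), and overlapped in PD-1- Tregs. Dendritic cell and MHC class II markers summed to 9054 to 16139 CPM in PD-1- Tregs and to 15771 to 49886 in the other libraries. By treatment the sums were lower without overlap in PD-1- Tregs (14697 to 16139 under isotype and 9054 to 11245 under anti-PD-L1) and overlapped in the other populations. Single markers did not all overlap there. In CD4 T cells Xcr1 stood at 6.00 to 8.04 CPM under isotype and 27.9 to 33.3 under anti-PD-L1. Itgax (12.5 to 15.4 and 24.1 to 29.1) was likewise higher without overlap, and Ccr7 lower. Zbtb46 (4.58 to 9.26 and 16.5 to 58.3) was higher without overlap in PD-1+ Tregs. So was Cd209a (485 to 714 and 941 to 1823), while Batf3 and Ccr7 were lower. The part of these markers in the changes of the 8 genes was not tested. Mesothelial and stromal markers were lower without overlap in CD4 T cells, at 1183 to 1570 CPM under isotype and 310 to 869 under anti-PD-L1, where 6 of the 8 genes were higher, and overlapped in both Treg types.

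The receptors for these ligands were listed as 14 genes, all of them tested. Ifngr1, which encodes the receptor chain that binds interferon-gamma, rose in each population on its own. It stood at 400.5 and 433 CPM under isotype and 1475 to 1996 under anti-PD-L1 in CD4 T cells, with changes of 2.09 ± 0.21 there, 2.01 ± 0.22 for PD-1- and 1.93 ± 0.21 for PD-1+ Tregs (adjusted p = 0.00386, 0.00119 and 0.00564, edgeR). In fits of 1 population alone the last 2 did not pass (0.612 and 0.722). The first was lost without either CD4 isotype library (0.155 and 0.218) and the last without either PD-1+ isotype library (0.158 and 0.104). Over the 3 populations 2 receptors rose and none fell, Ifngr1 at 2.01 ± 0.12 (adjusted p = 1.33e-05) and Il2rb, the IL-2 receptor beta chain, at 1.25 ± 0.23 (adjusted p = 0.0219), both by edgeR. Il2rb was lost without either CD4 isotype library, CD4 anti-PD-L1 replicate 1 or 3, or PD-1+ isotype replicate 1 (adjusted p up to 0.125) and without the Y-linked libraries (0.0538). The median change over the list was 0.71, against 0.01 over all genes. The receptors of the chemokines did not pass by treatment. Ccr1, Xcr1 and Tnfrsf1a were higher in PD-1+ than in PD-1- Tregs (adjusted p = 0.0113, 0.0367 and 0.0269, edgeR). Without the Y-linked libraries only Ccr1 of these 3 passed (0.0136), and in a fit of the Treg libraries alone none did (0.153, 0.294 and 0.284). Ccr1 and Xcr1 are also borne by macrophages and by dendritic cells, whose marker sums differed in the same direction.

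Of 20 other cytokine genes of T cells 17 were tested, and none of them was called by treatment by edgeR in any population or over all 3. The lymphotoxin gene Ltb was lower in PD-1+ than in PD-1- Tregs (log2 change -0.63 ± 0.14, adjusted p = 0.0243) and higher in PD-1- Tregs than in CD4 T cells (0.67 ± 0.14, adjusted p = 0.0215), so it ran against Ccl5, by edgeR. Fasl, the ligand of the death receptor Fas, was lower in PD-1- Tregs than in CD4 T cells (-8.65 ± 1.78, adjusted p = 0.0248). Without the Y-linked libraries the second call of Ltb and that of Fasl were lost (0.0991 and 0.110). Of 19 other chemokines tested, 4 were higher in PD-1+ than in PD-1- Tregs and none lower, Ccl2, Ccl7, Ccl8 and Ccl12, which are known as products of monocytes and macrophages. Ccl2 stood at 183 to 428 CPM in PD-1+ Tregs and at 0.181 to 62.8 in PD-1- Tregs (change 5.88 ± 0.73, adjusted p = 0.00157, edgeR). Ccl2 was also the 1 other chemokine that rose by treatment, in PD-1- Tregs, from 0.181 and 0.931 to 8.58 and 62.8 CPM (adjusted p = 0.0116, edgeR, and 0.925 in a fit of that population alone).

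Among 23 genes of the transcription and signalling steps that lead to these cytokines, none passed by treatment in CD4 T cells or PD-1+ Tregs, or over the 3 populations. Tbx21, which encodes the Th1 factor T-bet, was higher in PD-1+ than in PD-1- Tregs and lower in PD-1- Tregs than in CD4 T cells (changes 7.31 ± 1.68 and -8.46 ± 1.76, adjusted p = 0.0323 and 0.0231, edgeR), as Ccl5 was. Without the Y-linked libraries neither difference of Tbx21 passed (0.117 and 0.0935). Its levels were 23.3 to 29.0 CPM under isotype and 72.0 to 94.2 under anti-PD-L1 in CD4 T cells, without overlap, and at most 0.592 in PD-1- Tregs. In that population Nfatc1 (2.91 ± 0.50) and Stat4 (7.24 ± 1.52) rose by treatment (adjusted p = 0.00992 and 0.0251, edgeR). Of 14 genes of mRNA decay and repression, Bach2, a repressor of effector genes, fell in PD-1- Tregs from 32.5 and 166 CPM to 0 in both libraries (adjusted p = 0.00794, edgeR) and over the 3 populations (adjusted p = 0.0175). In a fit of the PD-1- libraries alone Nfatc1, Stat4 and Bach2 did not pass (adjusted p = 0.705 each).

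Genes that interferon-gamma and TNF are known to induce were listed as 21, all tested. Over the 3 populations 1 passed, the GTPase gene Igtp (0.83 ± 0.16, adjusted p = 0.0245, edgeR), and 20 of the 21 had a positive estimate, with a median of 0.45 against 0.01 over all genes. In PD-1- Tregs Igtp, Icam1 and the cytokine signalling inhibitor Socs1 rose (adjusted p = 0.0332, 0.0185 and 0.0207, edgeR), and in CD4 T cells, where Ifng was highest, none did by edgeR. Igtp was lost in both comparisons without the Y-linked libraries (0.0769 and 0.103), and none of the 3 passed in a fit of PD-1- libraries alone (0.705 each). Of 20 genes induced by the T cell receptor, Cd69 and Rgs16 fell over the 3 populations (adjusted p = 0.0126 and 0.0479, edgeR) and none rose. The call of Rgs16 was lost without the Y-linked libraries (0.0996), and that of Cd69 when 1 of the 14 libraries was left out (adjusted p up to 0.0661). Cd69, an early activation marker, stood at 481 and 705 CPM under isotype and 299 to 350 under anti-PD-L1 in CD4 T cells, where Ifng, Ccl5 and Xcl1 were higher under anti-PD-L1.

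Of 16 neighbouring genes tested, none rose with treatment. Wfdc17, which lies beyond Ccl4 on chromosome 11, fell in PD-1- Tregs (log2 change -2.41 ± 0.58, adjusted p = 0.0479, edgeR), where Ccl3 was called higher. That call was lost without the Y-linked libraries (adjusted p = 0.0757) and in a fit of that population alone (0.761).

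Across the 14 libraries the genes did not share 1 pattern. On log2 CPM with a prior count of 2, Ccl5 was most like Ifng among the other 7 (Pearson r = 0.803), then Ccl3 (0.754), and least like Tnf (0.369). Ccl3 and Ccl4 had an r of 0.0520, although they are neighbours. Among 8834 genes with a mean of at least 10 CPM, those most like Ccl5 were Nkg7 (0.934), Capzb (0.918) and Pdcd1 (0.888), the gene of PD-1, which also was a gene of the sort. Ccl4 was most like Dusp3 (0.972), Alox5ap (0.959) and Lat2 (0.955), and Tnf like Kmt5b (0.971), Irf4 (0.947) and Gpatch2l (0.945). For Ifng, Il2, Ccl3 and Xcl1 the leading genes were Kmt5c (0.967), Akt1s1 (0.960), Tspan17 (0.957) and Cenpu (0.968). For Csf2, with 81 counts in all, the highest was Cd3g (0.717). These correlations describe 14 libraries that share groups and libraries at 0, and a gene with few libraries above 0 can match another through those alone.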

How the data were processed

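RNA from 14 sorted libraries (6 groups of 2 or 3) was measured by Smart-seq2, which has no molecular identifiers, so counting intervals cover counting error only. The authors deposited raw read counts per gene and RPKM per gene. HISAT2 2.0.4, SAMtools, HOMER 3.12, DESeq2 and build mm10 are named in the submitters' processing notes. No source used here gives the annotation, how reads were counted or whether strand was used.

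Counts were fitted here with edgeR 4.0.16 (R 4.3.3) by the quasi-likelihood test with robust shrinkage, on TMM-scaled sizes, with 1 mean for each of 6 groups and all 14 libraries sharing 1 estimate of spread (common biological coefficient of variation 1.22). Genes passed filterByExpr at a minimum count of 10, and p-values were adjusted by Benjamini-Hochberg over 13434 genes, with a threshold of 0.05. Contrasts over several groups average their log2 means with equal weight, so a group at 0 moves the fitted value away from the ratio of mean levels. Where an arm was at 0, folds were taken against 3 counts in each library. Fits were tested on simulated data. Samples were grouped by the labels and deposited columns by their names.

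Alternatives were DESeq2 1.42.0, its size factors, no filter, limma 3.58.1 on log2(RPKM + 0.1) and log2(RPKM + 1), fits of the compared populations alone, replicate numbers as a block, and leaving out libraries. The 8 genes and the lists around them were chosen with earlier results of these data known. List genes named are those past the threshold, with the genes of the sort and, for likeness, the 3 genes of highest r or the first of them. Promoter sequences are from RefSeq (GRCm38.p6).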

Additional observations from a re-analysis of the deposited data

Results flagged for a closer look

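For Ccl3, the log2 change under anti-PD-L1 in PD-1+ minus that in PD-1- Tregs was -12.01 ± 2.44 (adjusted p = 0.0374, edgeR). That contrast called 196 genes in all. The joint test over the 3 populations did not pass (adjusted p = 0.1002, edgeR). The difference rests on a group of 2 libraries at 0.

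Ccl4 was higher in each anti-PD-L1 than in each isotype library of CD4 T cells, and lower in each anti-PD-L1 than in each isotype library of PD-1- Tregs, a log2 difference of -3.30 for PD-1- Tregs minus CD4 T cells that did not pass its test (adjusted p = 0.5703, edgeR).

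Counts of Y-linked genes appeared in 3 libraries of mice labelled female, at 207.5 CPM in CD4 anti-PD-L1 replicate 3, 249.5 in PD-1- anti-PD-L1 replicate 2 and 285.3 in PD-1+ anti-PD-L1 replicate 3. No isotype library held more than 1 such count. The sample titles give the column names of the count table in brackets, and those of all 3 end in the number 3.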

How the results depend on the processing

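Of the 8 genes, DESeq2 called 1 for treatment in CD4 T cells (edgeR 0), 5 in PD-1- Tregs (edgeR 1) and 4 over the 3 populations (2). Over all 13434 genes fitted it called 54, 2760 and 1898 there. Between the Treg types it called 5 of the 8 (edgeR 2), between PD-1- Tregs and CD4 T cells 5 (2), and for the difference between populations 1 (0). Over all genes those numbers were 2976, 3134 and 1035. Without the filter on low counts the numbers of the 8 were 2 in PD-1- Tregs, 1 over the 3 populations and 1 between PD-1- Tregs and CD4 T cells. Over all genes they were 394, 143 and 486. With log2(RPKM + 0.1) the numbers of the 8 were 2 in PD-1- Tregs, 4 between PD-1- Tregs and CD4 T cells, 1 between PD-1+ Tregs and CD4 T cells and 1 for the difference between populations. Over all genes they were 546, 1771, 319 and 114. With log2(RPKM + 1) the numbers of the 8 were 2 in PD-1- Tregs, 1 over the 3 populations and 3 between PD-1- Tregs and CD4 T cells, against 510, 105 and 968 over all genes. Fits of the compared populations alone gave 0 in PD-1- Tregs and 0 between the Treg types, against 0 and 33 over all genes. Without the libraries with Y-linked counts the numbers of the 8 were 4 in PD-1- Tregs, 1 between the Treg types and 1 between PD-1- Tregs and CD4 T cells. Over all genes they were 690, 623 and 391. In PD-1+ Tregs treatment called 0 throughout. The causes were not tested.

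Neither set of replicate numbers met the criterion for pairing, a correlation above 0.1 in every pair. Deviations of 13 pairs with the same title number correlated at -0.033 to 0.035. Those of 13 pairs with the same bracketed number correlated at 0.0020 to 0.035, against -0.033 to 0.017 for 20 pairs with different ones, and the 3 libraries with Y-linked counts all have the bracketed number 3. In groups of 2 libraries the deviations mirror each other, so many of these correlations repeat 1 value with its sign turned. The criterion therefore cannot settle whether libraries were paired. With the title number as a block, 0 of the 8 were called in PD-1- Tregs, 1 over the 3 populations, 1 between the Treg types and 1 between PD-1- Tregs and CD4 T cells. Over all genes the numbers were 146, 29, 173 and 100. A block on treatment and the bracketed number, chosen after seeing the data, gave 1 between the Treg types and 0 between PD-1- Tregs and CD4 T cells, against 84 and 52 over all genes.

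Leaving out 1 library at a time gave 1 to 3 in PD-1- Tregs, 0 to 3 over the 3 populations, 1 to 4 between the Treg types, 1 to 4 between PD-1- Tregs and CD4 T cells and 0 to 2 for the difference between populations.

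Signs turned for uncalled genes. Xcl1 in PD-1+ Tregs (0.81) was -2.03 with log2(RPKM + 0.1) and -0.95 with log2(RPKM + 1). Xcl1 between PD-1+ Tregs and CD4 T cells (0.25) was -1.18 and -0.65 on those scales and -0.51 and -0.55 with the blocks on title and bracketed number. Ccl4 over the 3 populations (0.25) was -0.78, -0.25 and, with the title block, -0.30, and Ccl4 in PD-1+ Tregs was -0.040 with that block. Leaving out 1 library gave ranges of -0.18 to 0.36 for Tnf in CD4 T cells, -11.23 to 6.65 in PD-1- Tregs and -4.14 to 1.82 over the 3 populations. The ranges were -0.74 to 0.38 for Ccl3, -0.72 to 0.90 for Ifng and -1.38 to 1.40 for Xcl1 in PD-1+ Tregs, -2.75 to 0.99 for Xcl1 and -2.98 to 0.56 for Ccl4 over the 3 populations, and -0.84 to 0.55 for Xcl1 between PD-1+ Tregs and CD4 T cells.

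Over all genes, the number called ranged over the alternatives from 0 to 54 for treatment in CD4 T cells, 0 to 2760 in PD-1- Tregs, 0 to 621 in PD-1+ Tregs and 29 to 1898 over the 3 populations, from 33 to 2976 between the Treg types, 11 to 741 and 52 to 3134 for PD-1+ and PD-1- Tregs against CD4 T cells, and 2 to 1035 for the difference between populations. DESeq2 gave the highest number in each.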
